A study of Mus musculus with 4 samples.

Results

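The expression of 10 mast cell genes was followed on 4 arrays of mouse colon: the mucosal proteases Mcpt1 and Mcpt2, the connective tissue proteases Mcpt4 and Cma1, the protease genes Cpa3, Tpsb2 and Tpsab1, and the receptor genes Fcer1a, Ms4a2 and Kit. They were chosen by name, as every probe whose gene symbol was that of a member. The array held 10 of 10 members with 11 probes, out of 22384 named genes and 39423 probes, and 1 spot stood for each member probe on each array. The RNA was pooled from the colons of male mice of 42 weeks, littermates on the B6.129 (n3) background, in which a targeted line of mixed strain origin had been crossed back to C57BL/6 for 3 generations. Pla2g3+/+ and Pla2g3-/- mice received saline as vehicle, or azoxymethane (AOM), a carcinogen that gives rise to tumors of the colon, at 10 mg/kg into the peritoneum once a week for 6 weeks, and the colon was taken 28 weeks after the last injection. The AOM samples were labelled as colorectal cancer tissue. Each of the 4 groups was 1 pool on 1 array, of 3 to 5 mice by the series description and of a fixed number within that range by the study's text, so neither the spread between mice nor a test between groups can be had, and a difference of 2-fold served as the threshold. Pla2g3 encodes a secreted phospholipase A2. The part of the gene that was deleted is not given in the sources used here.

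Mast cells are tissue-resident immune cells that store proteases in granules and release them when IgE on their surface is cross-linked. In rodents, mucosal mast cells lie in and under the epithelium and carry the chymases mMCP-1 and mMCP-2, encoded by Mcpt1 and Mcpt2. Connective tissue mast cells lie around vessels and in the submucosa and muscle. They carry the chymases mMCP-4 (Mcpt4) and mMCP-5 (Cma1) and the tryptases mMCP-6 (Tpsb2) and mMCP-7 (Tpsab1). Carboxypeptidase A3 (Cpa3) was counted here as a protease of both mast cell types. The high-affinity IgE receptor binds IgE through its alpha chain (Fcer1a) and signals through a beta chain (Ms4a2) and a gamma chain, and KIT is the receptor for stem cell factor, on which mast cells depend.

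The targeted gene was examined first. Values are given as relative signal, the background-corrected intensity of a spot scaled to the 75th percentile of all spots on the same array. For the brightest of the 3 Pla2g3 probes, the relative signal was 0.531 on the array labelled Pla2g3+/+ with vehicle, 0.656 on that labelled Pla2g3-/- with vehicle, 0.232 on that labelled Pla2g3+/+ after AOM and 1.40 on that labelled Pla2g3-/- after AOM. After AOM it was 6.01-fold higher on the array labelled Pla2g3-/-, and the other probes were 6.66-fold and 2.76-fold higher there. With vehicle, the brightest probe was 1.23-fold and the second 1.06-fold higher on the array labelled Pla2g3-/-. The third was at least 2.31-fold higher, being not well above background on the array labelled Pla2g3+/+. The signal therefore went against the genotype labels. A probe outside the deleted part of the gene would not show the deletion, and whether these probes lie inside it cannot be told from the sources used here. The arrays are called labelled WT and labelled KO below, and every direction between the genotypes rests on those labels.

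The scanner software called 64.8% to 69.4% of the spots per array well above background, and no spot was saturated. The SD between replicate spots of the same probe was 0.066 to 0.079 on the log2 scale over 399 probes, which measures the spotting and hybridization of 1 pool and not the variation between mice. The scanner software gave each spot an error of its own, which is carried below as the spot error of a log2 ratio. The arrays differed in markers of other cells: of 12 genes of pancreatic acinar cells, 10 were over 2-fold higher on the labelled KO than on the labelled WT array with vehicle, and all 7 smooth muscle genes were over 2-fold lower on the labelled WT array after AOM than on the labelled KO array after AOM. Of 7 epithelial genes, 7 were well above background on every array.

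With vehicle, no member with a ratio differed by 2-fold between the labelled genotypes. Mcpt1, Mcpt2, Mcpt4, Cma1, Tpsb2 and Kit were well above background on both vehicle arrays, and on all 4 arrays. Cpa3, Tpsab1, Fcer1a and Ms4a2 were not well above background on either vehicle array and have no ratio there. Of the genes that define the lineage, Cpa3, Fcer1a and Ms4a2 were thus measured only after AOM. Of the 6 members with a ratio, 0 were higher and 0 were lower, where 1.93% of 16395 genes were over 2-fold higher and 1.32% were over 2-fold lower. The median log2 ratio of the members was -0.08 and that of all genes was -0.02.

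After AOM, the array labelled WT had the highest signal of 8 of the 10 genes, and among the members the mucosal chymases differed most between the genotypes. On the array labelled KO, 8 members were over 2-fold lower than on the array labelled WT, 0 were higher, and Cma1 and Kit did not pass 2-fold. Over all genes, 12.9% of 17202 were over 2-fold lower and 15.1% were over 2-fold higher in that comparison. The median log2 ratio was -3.12 over the 10 members and 0.03 over all genes. In bulk RNA, fewer mast cells and less RNA per mast cell cannot be told apart.

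Set against vehicle, 9 members were over 2-fold higher after AOM among the pools labelled WT, and Kit was over 2-fold lower. Treatment and the tissue taken cannot be told apart here. Over all genes, 15.1% of 17284 were higher and 22.4% were lower. In the pools labelled KO, 6 of 9 members with a value were higher, 2 were lower, Kit did not pass, and Ms4a2 had no value, while 9.64% of 16519 genes were higher and 15.1% were lower. The medians over the members were 4.96 and 1.21 on the log2 scale, and those over all genes were -0.17 and -0.08. The split of calls over all genes moved with the scaling: 40.3% of calls among the pools labelled WT and 38.9% among those labelled KO were higher calls, against 86.3% and 91.1% without scaling and 50.7% and 50.6% after normexp correction and quantile normalization. The 4 comparisons share arrays, so the same array enters several of these counts.

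**Figure D1:**
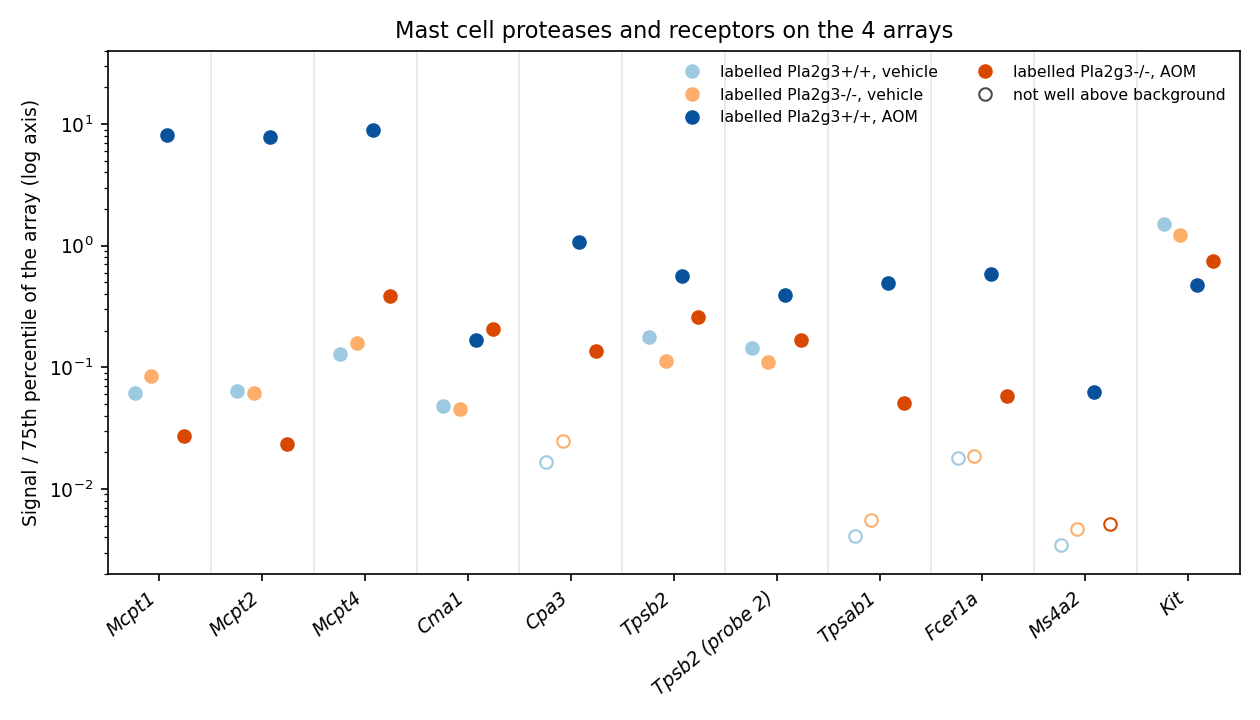
Relative signal (spot intensity over the 75th percentile of the array, log axis) of each probe of the 10 genes on the 4 arrays. Filled points are well above background and open points are not. Each point is 1 pool on 1 array, so there are no error bars. The array labelled Pla2g3+/+ after AOM stands highest for 8 of the 10 genes, Cma1 and Kit being the exceptions.

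Mcpt1, the gene of the mucosal chymase mMCP-1, had a relative signal of 0.0616 on the labelled WT and 0.0855 on the labelled KO array with vehicle, 8.13 on the labelled WT array after AOM and 0.0273 on the labelled KO array after AOM. The spot intensities were 39.7, 55.6, 10638 and 31.9 in that order. The labelled WT array after AOM stood 95.0-fold above the next array, and the other 3 arrays lay close together near the low end of the measured range. After AOM, the signal was 297-fold lower on the array labelled KO, a log2 ratio of -8.22 with a spot error of 0.29, the 11th lowest of the 15489 genes measured on both arrays.

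Mcpt2, the gene of mMCP-2, a close relative of mMCP-1 in the same granules, had relative signals of 0.0639 and 0.0610 with vehicle, labelled WT first, and of 7.88 and 0.0236 after AOM. Its pattern followed that of Mcpt1 on all 4 arrays. After AOM, it was 334-fold lower on the array labelled KO (log2 ratio -8.39, spot error 0.30), the 9th lowest ratio. The log2 ratios of Mcpt1 and Mcpt2 differed by 0.17 in that comparison, which is within their spot errors. Under normexp correction with quantile normalization, the log2 ratios between the AOM arrays were -5.96 for Mcpt1 and -6.09 for Mcpt2.

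Within the labelled genotypes, the mucosal chymases moved in opposite directions after AOM. In the pools labelled WT, Mcpt1 rose 132-fold and Mcpt2 rose 123-fold over vehicle. The log2 ratios behind these rises, 7.04 and 6.95, were 5.68 and 5.67 under normexp correction with quantile normalization and 8.06 and 7.97 without scaling. In the pools labelled KO, Mcpt1 was 3.13-fold and Mcpt2 was 2.59-fold below vehicle. These falls did not hold at 2-fold when the arrays were not scaled (log2 ratios of -0.80 and -0.53) or under normexp correction with quantile normalization (-0.54 and -0.37).

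Mcpt4 encodes mMCP-4, the main connective tissue chymase. Its relative signal was 0.130 and 0.159 with vehicle, labelled WT first, and 8.88 and 0.386 after AOM. On the array labelled WT after AOM it rose with the mucosal chymases, 68.5-fold over vehicle (log2 ratio 6.10, against 5.36 under normexp correction and 7.12 without scaling). On the array labelled KO after AOM it differed from them, standing 2.43-fold above vehicle and 23.0-fold below the labelled WT array (log2 ratio -4.52, spot error 0.20). The 2.43-fold rise fell below 2-fold under normexp correction (log2 ratio 0.86).

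Cma1, the gene of mMCP-5, had relative signals of 0.0482 and 0.0452 with vehicle, labelled WT first, and of 0.167 and 0.207 after AOM. It was the only chymase of the 4 with its highest signal on the array labelled KO after AOM. The AOM arrays differed by 1.24-fold (log2 ratio 0.32, spot error 0.21). AOM over vehicle was 3.45-fold in the pools labelled WT and 4.58-fold in those labelled KO, the former below 2-fold under normexp correction (log2 ratio 0.89) and the latter at 1.15 there against 2.20.

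Averaged over each pair, the log2 ratio of Mcpt1 and Mcpt2 minus that of Mcpt4 and Cma1 was 0.10 between the genotypes with vehicle and -6.20 between the genotypes after AOM. For AOM over vehicle it was 3.05 in the pools labelled WT and -3.25 in the pools labelled KO. The mucosal pair thus stood 73.4-fold further down than the connective tissue pair between the AOM arrays. That gap was smaller under normexp correction, at -3.99. The connective tissue pair was itself split, since the log2 ratio of Mcpt4 minus that of Cma1 was -4.84 between the AOM arrays, a wider gap than the -3.69 of Mcpt1 minus Mcpt4.

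**Figure D2:**
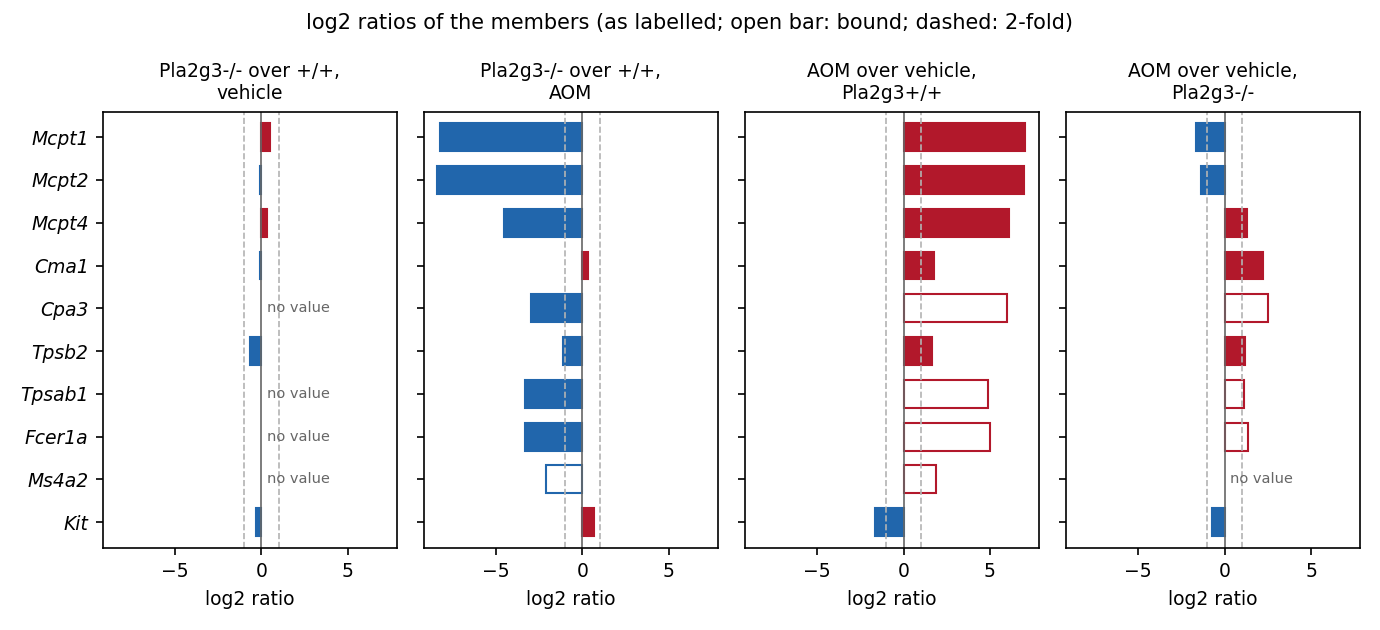
log2 ratios of the 10 genes in the 4 comparisons, by the labels. Filled bars were measured on both arrays, open bars are bounds where an array was not well above background, and dashed lines mark 2-fold. Mcpt1 and Mcpt2 reach -8.22 and -8.39 between the AOM arrays, while Cma1 (0.32) and Kit (0.67) lie on the other side of 0.

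The probes that measured the chymases are shown because these genes are close relatives and lie side by side on chromosome 14, so a probe that met several transcripts would blur them. The Mcpt1 probe lies at mm9 chr14:56638928-56638987 on the plus strand and runs from the last codons into the stretch past the stop codon. Its part up to the stop codon, chr14:56638928-56638976, is printed with the stop codon in capitals. The Cma1 probe spans 1060 bases of the genome on the minus strand, chr14:56561491-56562550, for its 60 bases, so it crosses an intron and its letters are those of the spliced transcript. No capitals mark it.
Mcpt1 probe, part up to the stop codon: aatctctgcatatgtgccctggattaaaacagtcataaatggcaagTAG
Cma1 probe: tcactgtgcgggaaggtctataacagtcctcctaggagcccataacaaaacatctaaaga
The Mcpt2 probe lies at chr14:56663261-56663320. The longest run of letters that the Mcpt1 and Mcpt2 probes shared was 10 bases of 60, and Cma1 shared runs of 7, 5 and 6 bases with Mcpt1, Mcpt2 and Mcpt4. Only probes were compared with each other, and they lie at different places in their genes. Whether a probe matches the transcript of another gene was not examined, so short runs do not show that a probe is specific. The Mcpt4 probe at chr14:56678589-56678648 shared 27 bases in a row with the probe of Mcpt-ps1, a chymase pseudogene of the same locus at chr14:56568646-56568705. Signal from a transcript of either gene on the probe of the other cannot be told apart from its own over that stretch.

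The upstream sequences of Mcpt1, Mcpt4 and Cma1 are shown because the signals of the first 2 rose 132-fold and 68.5-fold over vehicle in the pools labelled WT, and that of the third rose 3.45-fold. RefSeq sequences of assembly GRCm38.p6, a later build than that of the probes, were found for 7 of the 10 members, and the 250 bases before the transcript start were searched. GATA motifs (AGATAA or AGATAG or TGATAA or TGATAG, on either strand, none of which holds either of the other motifs searched) were searched because GATA1 and GATA2 are known regulators of mast cell genes. They are in capitals in the sequences, which run 5′ to 3′ on the strand of the gene.
Mcpt1, chr14:56017714-56017963, plus strand: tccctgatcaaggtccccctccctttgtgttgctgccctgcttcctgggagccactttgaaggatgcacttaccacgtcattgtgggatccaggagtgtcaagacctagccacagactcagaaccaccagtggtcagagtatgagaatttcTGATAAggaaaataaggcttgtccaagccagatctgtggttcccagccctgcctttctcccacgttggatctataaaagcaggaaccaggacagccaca
Mcpt4, chr14:56062311-56062560, minus strand: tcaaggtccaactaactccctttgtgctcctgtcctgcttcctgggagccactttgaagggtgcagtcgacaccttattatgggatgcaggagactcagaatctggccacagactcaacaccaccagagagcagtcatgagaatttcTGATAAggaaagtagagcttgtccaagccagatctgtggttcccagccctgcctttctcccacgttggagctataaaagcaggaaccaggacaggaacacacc
Cma1, chr14:55944676-55944925, minus strand: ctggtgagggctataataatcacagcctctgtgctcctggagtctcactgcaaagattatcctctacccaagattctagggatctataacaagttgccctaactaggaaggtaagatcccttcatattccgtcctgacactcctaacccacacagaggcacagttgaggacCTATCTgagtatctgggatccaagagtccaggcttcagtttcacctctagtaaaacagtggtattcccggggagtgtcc
Mcpt1 and Mcpt4 had the motif 99 and 103 bases before the start, on the same strand and within the same surrounding letters, and Cma1 had it 79 bases before the start on the opposite strand. Over the 250 bases, 209 of 242 aligned positions (86.4%) were identical between Mcpt1 and Mcpt4, against 67.5% between Mcpt1 and Cma1. A value of 67.5% was also found between Cma1 and Fcer1a, which belong to different families. TATAAA on the strand of the gene was present 28 and 32 bases before the start of Mcpt1 and Mcpt4 and was not found in the Cma1 window.
Of the 7 members with a sequence (for Kit, the first of 2), 6 held a GATA match, Kit being the exception, and 4 held TATAAA, where 26.5% and 7.59% of the 32851 upstream sequences of the table did. Ms4a2 held 3 GATA matches, and 6.40% of all sequences held 2 or more. The motif CATGTG or CACATG, which the mast cell factor MITF is known to bind, was found for 1 member, Fcer1a, and in 12.3% of all sequences. A match is a description of letters, and binding was not measured. Mcpt1 and Mcpt4, alike in these letters, differed from each other on the array labelled KO after AOM as given above.

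Cpa3 encodes carboxypeptidase A3, a granule protease of both mast cell types, and its probe lies at chr3:20115674-20115733 (mm9, as for all probes). On the vehicle arrays its relative signals of 0.0166 (labelled WT) and 0.0246 (labelled KO) were not well above background, and after AOM they were 1.06 and 0.137. Both AOM arrays thus stood above the vehicle arrays, at least 64.0-fold in the pools labelled WT and at least 5.59-fold in those labelled KO. Between the AOM arrays, Cpa3 was 7.74-fold lower on the one labelled KO (log2 ratio -2.95, spot error 0.21). Under normexp correction the log2 ratios over vehicle were 3.28 and 1.03 and that between the AOM arrays was -2.12.

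The tryptases behaved unlike each other. Tpsb2 (mMCP-6) was measured by 2 probes on all 4 arrays, while Tpsab1 (mMCP-7) was measured by 1 probe and on the AOM arrays alone. The Tpsb2 probes lie at chr17:25504819-25504878 and chr17:25504493-25504552, and the Tpsab1 probe at chr17:25480640-25480699. For the brighter Tpsb2 probe, the relative signals were 0.178 and 0.112 with vehicle, labelled WT first, and 0.567 and 0.257 after AOM. Its rise over vehicle was 3.19-fold in the pools labelled WT and 2.31-fold in those labelled KO, and it was 2.20-fold lower on the labelled KO array after AOM. The second Tpsb2 probe gave 2.78-fold, 1.53-fold and 2.34-fold, so the rise in the pools labelled KO passed 2-fold with 1 probe only, and under normexp correction that probe fell short too (log2 ratio 0.74). Between the AOM arrays Tpsb2 fell short of 2-fold under normexp correction (log2 ratio -0.79).

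For Tpsab1, the relative signals were 0.00409 and 0.00553 with vehicle, neither well above background, and 0.497 and 0.0505 after AOM. It was at least 29.9-fold above vehicle in the pools labelled WT and at least 2.22-fold above it in those labelled KO. Between the AOM arrays it was 9.82-fold lower on the one labelled KO, a wider gap than that of Tpsb2 by 2.16 on the log2 scale. Under normexp correction the log2 ratios of Tpsab1 were 2.43 and 0.72 over vehicle, the latter short of 2-fold, and -1.88 between the AOM arrays. The Tpsb2 and Tpsab1 probes shared at most 8 bases in a row, which does not tell whether either probe meets the transcript of the other gene.

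The receptors fell into 2 patterns. Fcer1a and Ms4a2, the chains particular to the IgE receptor of mast cells and basophils, followed the proteases, and their probes lie at chr1:175151438-175151497 and chr19:11691701-11691760. Fcer1a had relative signals of 0.0180 and 0.0186 with vehicle, neither well above background, and of 0.582 and 0.0577 after AOM, labelled WT first. It rose at least 32.3-fold and at least 2.54-fold over vehicle in the pools labelled WT and KO, and was 10.1-fold lower on the labelled KO array after AOM (log2 ratio -3.33, spot error 0.22). Under normexp correction the log2 ratios of Fcer1a were 2.44 and 0.36 over vehicle, the latter short of 2-fold, and -1.99 between the AOM arrays. Ms4a2 was well above background on the array labelled WT after AOM alone, with a relative signal of 0.0621. It was at least 4.25-fold lower on the array labelled KO and at least 3.74-fold above vehicle, and under normexp correction these fell to log2 ratios of -0.70 and 0.74.

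Kit, probed at chr5:76052394-76052453, went the other way. Its relative signals were 1.498 and 1.23 with vehicle and 0.474 and 0.753 after AOM, labelled WT first, so the array with the highest protease signals had the lowest Kit signal. AOM over vehicle was 3.16-fold lower in the pools labelled WT. In the pools labelled KO it was 1.63-fold lower, a log2 ratio of -0.70 that was 0.14 without scaling. Between the AOM arrays it was 1.59-fold higher on the one labelled KO (log2 ratio 0.67, spot error 0.20). Without scaling the fall in the pools labelled WT was -0.64 on the log2 scale, short of 2-fold.

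Kit is also made by the interstitial cells of Cajal, the pacemaker cells of gut muscle, and by melanocytes, and the markers of these cells were read beside it. Of 6 other genes of interstitial cells, 5 had a value between the AOM arrays, of which 3 were over 2-fold higher on the array labelled KO and 2 were lower. The channel gene Ano1 was 2.32-fold, Thbs4 was 12.7-fold and the transcription factor gene Etv1 was 2.63-fold higher there, while Gja1 and Prkcq had log2 ratios of -2.18 and -1.47. The summed relative signal of the list with Kit was 19.0 and 16.9 with vehicle and 16.3 and 57.2 after AOM, labelled WT first, and Hcn4 was not well above background on any array. Of 5 melanocyte genes, 3 had a value and 1 was lower, and Mlana and Tyrp1 were not well above background on any array. The part of these cells in the Kit values was not tested.

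**Figure D3:**
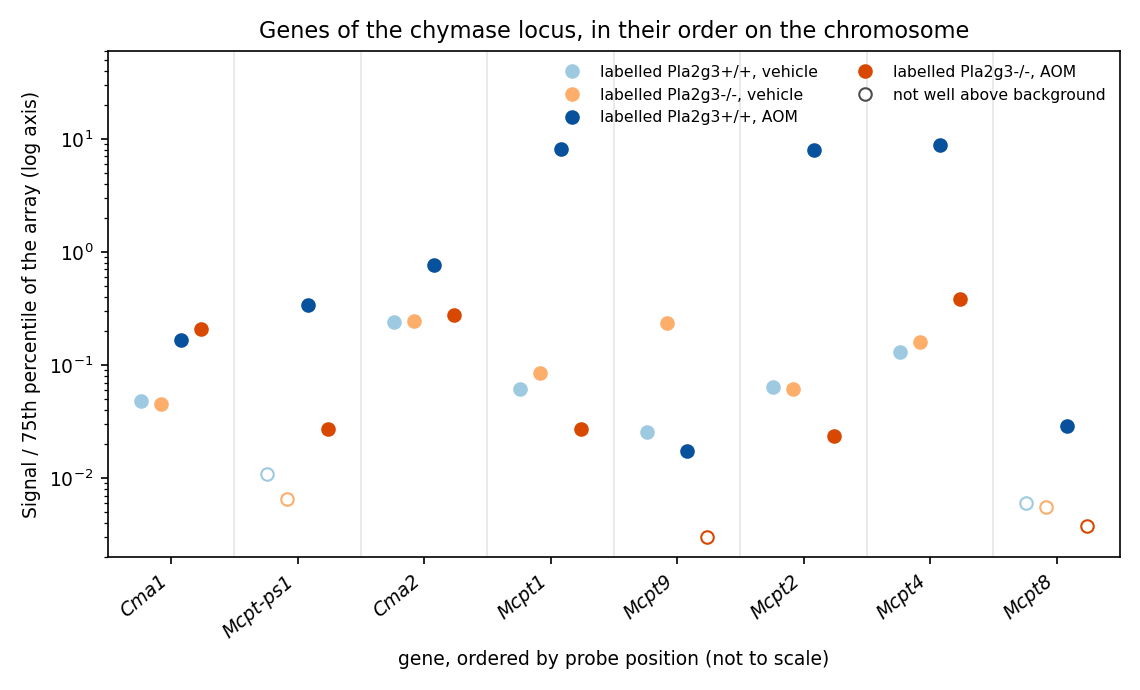
Relative signal (log axis) of 8 genes of the chymase locus on chromosome 14, placed in the order of their probes, on the 4 arrays. Filled points are well above background and open points are not. The array labelled Pla2g3+/+ after AOM reaches 7.88 to 8.88 for Mcpt1, Mcpt2 and Mcpt4, and Cma1, the first of the 8, reaches 0.167.

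The probes of neighbouring genes in the chymase locus did not all follow those of the members. By the mm9 positions of the probes, the order was Cma1, Mcpt-ps1, Cma2, Mcpt1, Mcpt9, Mcpt2, Mcpt4 and Mcpt8. Cma2, a second chymase-like gene, had relative signals of 0.239 and 0.245 with vehicle and 0.768 and 0.275 after AOM, and was 2.79-fold lower on the labelled KO array after AOM. Mcpt-ps1 was measured on the AOM arrays alone, at 0.342 and 0.0269, a 12.7-fold difference on the probe that shares 27 bases with that of Mcpt4. Mcpt9, which lies between Mcpt1 and Mcpt2, had its highest relative signal on the labelled KO array with vehicle, at 0.234 against 0.0257, 0.0173 and 0.00300 on the labelled WT vehicle, labelled WT AOM and labelled KO AOM arrays, the last not well above background. It was 9.11-fold higher on the labelled KO than on the labelled WT array with vehicle, the array on which the acinar genes were also high. The Mcpt9 probe begins with letters nearly the same as the last letters of the Mcpt4 upstream sequence printed above, TATAAA included. Whether it measures the Mcpt9 transcript, or that alone, was not tested. Mcpt8, a protease of basophils, was well above background on the labelled WT array after AOM alone, at 0.0290.

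The counts of the gene lists that follow stand against 12.9% of all genes lower and 15.1% higher on the array labelled KO after AOM, with a median log2 ratio of 0.03. Among the other granule proteases of the chymase and tryptase loci, 11 of 16 genes on the array had a value between the AOM arrays, of which 5 were over 2-fold lower on the one labelled KO and 2 were higher. Beside Cma2 and Mcpt-ps1, the lower genes were the granzymes Gzmb (6.95-fold), Gzmc (at least 9.40-fold) and Gzme (at least 7.87-fold), which cytotoxic lymphocytes also make. The higher genes were the cathepsin G gene Ctsg (2.75-fold) and Tpsg1 (4.47-fold). Tpsg1 encodes a tryptase anchored in the membrane and ran against the soluble tryptases, with relative signals of 22.2 and 18.9 with vehicle and 0.572 and 2.56 after AOM, labelled WT first. AOM over vehicle for Tpsg1 was 38.9-fold lower in the pools labelled WT. Prss28 had a log2 ratio of -0.03 between the AOM arrays.

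Granule and mediator genes did not move as a group. Of 15 with a value between the AOM arrays, 3 were lower on the one labelled KO, 3 were higher and 9 did not pass, with a median log2 ratio of 0.08. On each vehicle array, 15 of the 16 genes were well above background, where Cpa3, Fcer1a and Ms4a2 were not. The list median is therefore not a value of mast cells alone, and the part of other cells in it was not tested. Hdc, the enzyme gene of histamine synthesis, had relative signals of 0.0454 and 0.0423 with vehicle and 4.14 and 0.0612 after AOM, labelled WT first, and was 67.6-fold lower on the array labelled KO. Srgn, the gene of the proteoglycan serglycin that packs granule proteases, was 9.93-fold lower there, with relative signals of 1.88, 1.72, 7.55 and 0.761 in the order of the arrays above. The third was Ctsw (log2 ratio -1.01). Ptger3, a prostaglandin E2 receptor gene, was at least 39.4-fold higher on the array labelled KO, and Dpp4 and the protease inhibitor gene Serpinb1a were 3.18-fold and 2.46-fold higher. The prostaglandin and leukotriene enzyme genes Ptgs1 and Ltc4s had log2 ratios of -0.09 and 0.35, Pla2g4a had 0.60, and Tph1 of serotonin synthesis had 0.08. Hpgds, the prostaglandin D2 synthase gene of mast cells, differed with vehicle, where it was 2.27-fold lower on the array labelled KO, and had a log2 ratio of -0.20 between the AOM arrays.

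Growth factors, alarmins and their receptors were more often lower than higher on the array labelled KO after AOM, 9 and 1 of 17 with a value (median log2 ratio -1.26). Il1rl1, the gene of the interleukin 33 receptor ST2, had relative signals of 0.187 and 0.216 with vehicle and 14.4 and 0.0651 after AOM, labelled WT first, and was 221-fold lower on the array labelled KO. The shared receptor chain genes Csf2rb and Csf2rb2 were 6.22-fold and 5.25-fold lower. Tgfb1, whose product drives Mcpt1 expression in mucosal mast cells, was 4.03-fold lower, and the integrin genes Itgb7 and Itgae, which serve homing to and retention in the epithelium, had log2 ratios of -1.49 and -1.26. Il4ra had -2.19, and Cxcr2 was at or below -3.23. Kitl, the stem cell factor gene, Il33 and the receptor gene Tgfbr2 did not pass 2-fold, with log2 ratios of -0.79, -0.73 and -0.94. Il18 was higher by 1.20. Il3, Il9, Il10 and Il25 were not well above background on any array.

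Of the genes that signal from the IgE receptor, 10 of 16 were over 2-fold lower on the array labelled KO after AOM and 0 were higher (median log2 ratio -1.25). Fcer1g, the gamma chain gene that other Fc receptors of myeloid cells share, had relative signals of 2.13 and 2.84 with vehicle and 5.95 and 1.32 after AOM, and was 4.52-fold lower. The adaptor genes Lat, Lat2 and Lcp2 and the phospholipase C genes Plcg1 and Plcg2 were among the 10, with log2 ratios between -1.92 and -1.54, that of Lcp2 a bound. The kinase genes Syk (-0.68), Lyn (-0.79), Btk (-0.85) and Fyn (0.16), and Vav1 (-0.95), did not pass. Many of these genes are also active in other leukocytes.

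Of 8 transcription factor genes of mast cells, 3 were over 2-fold lower on the array labelled KO after AOM and 1 was higher. Runx1 and Ikzf1, active across blood cells, had log2 ratios of -1.10 and -1.18, and Gata1 was at or below -1.02. Tal1 was higher by 1.13. Gata2 and Mitf, which are central to mast cell identity, had log2 ratios of -0.36 and 0.36, and Bhlhe40 and Cebpa had 0.37 and 0.35. Among 11 other mast cell surface genes with a value, 3 were lower and 0 were higher: Siglecf (-1.57), the adenosine receptor gene Adora3 (-1.10) and Cd200r3 (a bound of -1.78). Adora3 was also 4.77-fold lower on the labelled KO array with vehicle. The bright genes Cd63, Cd9 and Rab27b had 0.31, 0.60 and 0.85, and Mrgprb2, the receptor gene of connective tissue mast cells, was not well above background on any array.

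**Figure D4:**
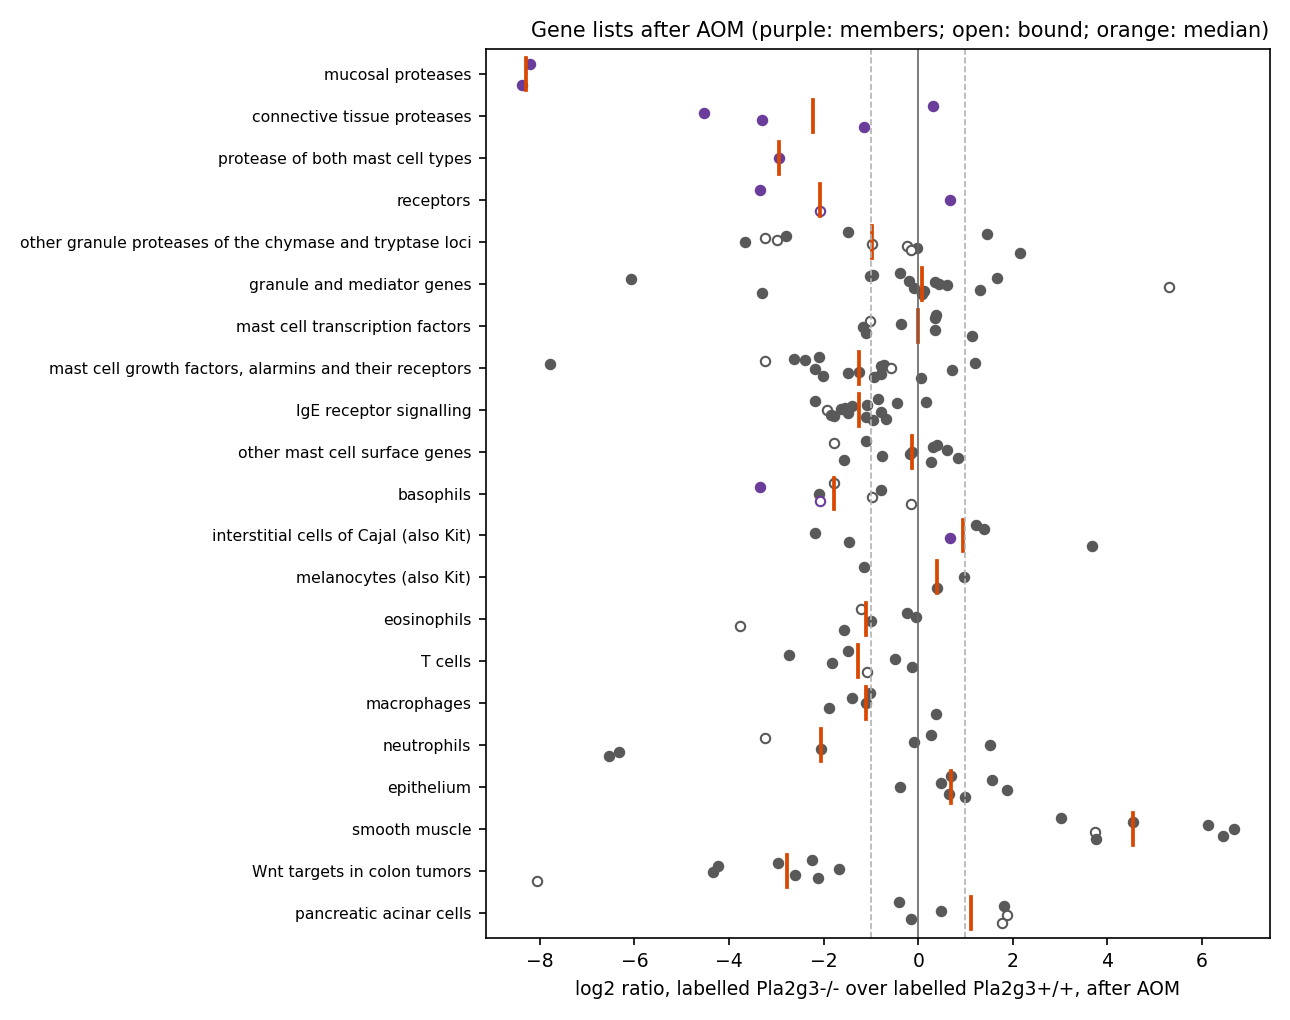
log2 ratio of the array labelled Pla2g3-/- over that labelled Pla2g3+/+ after AOM, for each gene with a value in 21 gene lists. Points are genes (purple, the 10 members; open, bounds), orange lines are list medians and dashed lines mark 2-fold. The mucosal proteases have the median of -8.30, and the smooth muscle list has one of 4.54 on the other side of 0.

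Markers of other cells moved between the same AOM arrays. All 7 smooth muscle genes were over 2-fold higher on the array labelled KO, and their summed relative signal was 492 and 518 with vehicle and 28.9 and 467 after AOM, labelled WT first, with Lmod1 not well above background on the labelled WT array. All 8 Wnt target genes of colon tumors were over 2-fold lower on the array labelled KO, with summed relative signals of 6.95 and 6.77 with vehicle and 52.3 and 7.87 after AOM. The array labelled WT after AOM was thus low in muscle genes and high in Wnt targets, and the array labelled KO after AOM lay near the vehicle arrays in both.

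Leukocyte lists were also lower on the array labelled KO. The counts lower and higher were 4 and 0 of 6 for T cells, 4 and 0 of 5 for macrophages, 4 and 1 of 7 for neutrophils and 3 and 0 of 6 for eosinophils, and the median log2 ratios were -1.28, -1.11, -2.06 and -1.10. After AOM the summed relative signals, labelled WT first, were 3.00 and 1.79 for T cells, 16.4 and 7.77 for macrophages, 93.4 and 62.1 for neutrophils, and 0.918 and 0.533 for eosinophils. Csf3r, the highest gene of the neutrophil sum, ran the other way, at 44.4 and 53.8, while the calgranulin genes S100a9 and S100a8 were 92.4-fold and 80.5-fold lower on the array labelled KO. The eosinophil peroxidase gene Epx was not well above background on any array. Epithelial genes summed to 287 and 425, with 2 of 7 higher on the array labelled KO and 0 lower, and of 6 acinar genes with a value 3 were higher and 0 lower.
Basophils share the IgE receptor with mast cells. Without Fcer1a and Ms4a2, 2 of 5 basophil genes were lower, Itga2 and Cd200r3. Mcpt8, the defining protease of basophils, was at least 1.98-fold lower, a bound that does not settle which side of 2-fold it lies on, and Prss34 had a relative signal of 0.0163 on the labelled WT array and was not well above background on the labelled KO array after AOM. The part of other cells, of tissue composition and of the single pools in the member values was not tested. With 1 pool per group, the tissue taken cannot be told apart from genotype or from treatment.

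Genes whose pattern over the 4 arrays was nearest to the mean of Mcpt1 and Mcpt2 were sought. The candidates were the 16456 other genes well above background on the labelled WT array after AOM, where Mcpt1 and Mcpt2 stood highest. Genes not called on that array could not be found, so the neighbours and ranks rest on that choice. The measure was the root mean square difference of log2 values after each profile was centred on its own mean. The nearest were the Wnt target Sp5 (0.14), Acod1 of activated macrophages (0.16), Il1rl1 (0.30), the Wnt inhibitor gene Wif1 (0.33) and the collagenase gene Mmp13 (0.37). Sp5 and Acod1 were not well above background on the labelled KO array after AOM. The lowest intensity called well above background stood in for them there, so their distances rest on that replacement. The other mast cell genes were further away: Mcpt4 was 93rd (1.42), Fcer1a 192nd, Tpsab1 195th and Cpa3 333rd. Ms4a2 was 758th, Tpsb2 1187th, Cma1 4384th (3.07) and Kit 14506th. Fcer1a, Tpsab1, Cpa3 and Ms4a2 were not well above background on the vehicle arrays, so their distances rest in part on the same replacement. The genes nearest to the mean of Mcpt4 and Cma1 were Abcc4 (0.14), Col6a5 (0.15), Ptprz1 (0.16), Lama5 (0.16) and Adamts9 (0.17), and Tpsab1 and Fcer1a ranked 68th and 78th. For Col6a5 the replacement applied on both vehicle arrays. Mcpt4 and Cma1 were themselves split, by a log2 difference of -4.84 between the AOM arrays, so genes near their mean need not be near either. With 4 arrays these distances describe the pools and carry no test.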

How the data were processed

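The 4 one-color (Cy3) Agilent Whole Mouse Genome arrays, 1 pool each, were grouped by the deposited labels. Each deposited intensity came from Agilent Feature Extraction 11.5.1.1, background-subtracted by the authors and not scaled between arrays, with a call of well above background for each spot. The deposited value table is a ratio, the authors' intensity over the 75th percentile of its array, checked against each array. Aligner and genome do not apply, and coordinates are those of the array files (mm9).

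Control and outlier spots were left out, replicate spots averaged on the log2 scale and the 75th percentile subtracted. The brightest probe stood for a gene. A signal not well above background was replaced by the array's lowest intensity among spots called well above background, or kept if higher, and the ratio taken as a bound, so that "at least" marks it. Where both arrays were below, no ratio was given. Precision is limited by the number of arrays, 1 in each group. The 2-fold threshold is the cut by which the study marked genes. Ratios were checked on simulated data. The changed probes there started well over the lowest measured signal, with noise smaller than the spot errors of the members. The check therefore does not cover members near background. Alternatives were no scaling, median scaling, quantile normalization, normexp (offset 50) with quantile normalization by limma 3.58.1 in R 4.3.3, signals as they stand, genes well above background on both arrays, mean over probes, dimmest probe, the deposited table, and thresholds of 1.5-fold and 4-fold. Python 3.11.15, pandas 2.3.3 and Biopython 1.88 were used. Probes of a gene were named through the symbols and accessions of the files and a RefSeq table.

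Members and gene lists were chosen with earlier results of these data known. The text names every member and probe, the targeted gene, list counts with the brightest genes and the mast cell genes past 2-fold between the AOM arrays, and the 5 genes nearest to each chymase pair. Other genes were named after their values were seen.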

Additional observations from a re-analysis of the deposited data

Results flagged for a closer look

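For Mcpt1 and for Mcpt2, the log2 ratios of AOM over vehicle had opposite signs between the labelled genotypes. The log2 ratio of Mcpt1 was 7.04 in the pools labelled WT and -1.65 in the pools labelled KO, and that of Mcpt2 was 6.95 and -1.37. The difference was not tested, since each group is 1 array, and the negative values fall short of 2-fold without scaling and under normexp correction.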

How the results depend on the processing

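Of 35 log2 ratios of the members, 20 kept their side of 2-fold under all 9 alternatives other than the fold thresholds, and 4 bounds (AOM over vehicle for Cpa3 in both labelled genotypes, and for Tpsab1 and Fcer1a labelled WT) kept it under the 8 that gave a value. Of the 26 past 2-fold, 11 kept it under all 9, these 4 under 8, and 11 lost it under at least 1 alternative, most under normexp correction. No call changed sign. The count of members lower between the AOM arrays, 8, ranged from 6 (normexp) to 8 over the 11 alternatives. Under normexp correction with quantile normalization, the difference between the mucosal and connective tissue pairs was -3.99 between the AOM arrays, 2.55 for AOM over vehicle labelled WT (3.23 under quantile normalization alone) and -1.46 labelled KO, and the members higher and lower after AOM labelled KO were 2 and 0. Without scaling, 0 members were lower after AOM in either labelled genotype, and the median over all genes moved to 0.87 (labelled WT) and 0.76 (labelled KO) on the log2 scale. With genes well above background on both arrays alone, 5 members were higher after AOM labelled WT and 3 labelled KO. At 1.5-fold, 1 member was lower on the labelled KO array with vehicle and 1 was higher after AOM. At 4-fold, 2 members were higher after AOM labelled KO and 0 were lower in either labelled genotype. The 75th percentile, which scaling takes out, was 646 and 650 on the vehicle arrays and 1309 and 1169 on the AOM arrays, labelled WT first. The cause of these moves was not tested. Signals not well above background leave only bounds for Cpa3, Tpsab1, Fcer1a and Ms4a2 against vehicle. No paired analysis was possible because each group is 1 array.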
